A study of Mus musculus with 12 samples.

Results

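Expression of 10 genes of the integrated stress response was followed in the hearts of mice with type 1 diabetes and of mice treated with pargyline, an inhibitor of monoamine oxidase (MAO). The genes were *Atf4*, *Atf5*, *Ddit3*, *Trib3*, *Asns*, *Chac1*, *Phgdh* and *Mthfd2*, together with *Gdf15* and *Fgf21*, which encode stress cytokines. They were taken by gene symbol, from a list made with earlier results of these data known, and all 15 of their probes among the 56605 on the array were taken. Probes entered the tests when at least 2 of 3 arrays in each group gave a signal that the scanner software called positive and significant, and 14 probes of 9 genes met this filter. The only probe of *Fgf21* did not. Total RNA of heart muscle from 12 male C57BL6/J mice aged 5 months was hybridised to single-colour Agilent arrays, with 1 array per mouse and 3 mice in each of 4 groups. Control mice (C) had neither streptozotocin nor pargyline. The study gave vehicle in place of pargyline to the groups without it, which are called untreated here. Diabetic mice (D) received streptozotocin, which is toxic to the insulin-producing cells of the pancreas, at 50 mg/kg per day for 5 days from 6 to 7 weeks of age and counted as diabetic at a blood glucose of at least 17 mM. Control mice with pargyline (C + P) and diabetic mice with pargyline (D + P) received the inhibitor at 50 mg/kg per day for 12 weeks. Streptozotocin reaches the whole animal, so a difference between D and C is one between mice with and without streptozotocin, and no gene was altered in any group.

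The integrated stress response starts when kinases that sense amino acid shortage, unfolded proteins, haem shortage, double-stranded RNA or mitochondrial dysfunction phosphorylate the α subunit of the translation initiation factor eIF2. Most protein synthesis then slows while the messenger RNA of *Atf4* is translated more, so that ATF4 protein can increase with little change in its transcript. ATF4 pairs with C/EBP proteins on a DNA element shared by many genes of amino acid synthesis, amino acid transport and stress signalling. In heart and skeletal muscle the response is known from mitochondrial disease, in which it switches on enzymes of serine and folate metabolism and the release of GDF15 and FGF21. MAO, which breaks down amine neurotransmitters at the outer mitochondrial membrane, produces hydrogen peroxide.

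The element bound by ATF4 with a C/EBP partner was searched as TGATGNAA, where N is any base, on both strands of the RefSeq promoters in assembly GRCm38.p6, from 250 bases before to 50 bases after the transcription start. Promoters were found for 10 of 10 genes. The windows that hold the element are printed here because they are what 4 of these genes share in sequence, with the element in capitals, 5′ to 3′ on the strand of the gene, and cut at most 30 bases after the start.
*Chac1*, chr2:119351024-119351081, plus strand: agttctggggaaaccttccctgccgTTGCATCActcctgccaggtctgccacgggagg
*Fgf21*, chr7:45615597-45615654, minus strand: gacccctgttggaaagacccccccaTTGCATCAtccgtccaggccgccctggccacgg
*Asns*, chr6:7693200-7693257, minus strand: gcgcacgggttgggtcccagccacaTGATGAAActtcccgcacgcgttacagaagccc
*Trib3*, chr2:152344031-152344071, minus strand: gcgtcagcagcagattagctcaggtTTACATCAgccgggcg
In *Chac1*, *Fgf21* and *Trib3* the element lies on the opposite strand and reads as its reverse complement. Its first base is 193 bases before the start in *Chac1*, 139 before it in *Fgf21* and 23 before it in *Asns*, and is base 15 of the transcript in *Trib3*. No promoter of *Atf4*, *Atf5*, *Ddit3*, *Phgdh*, *Mthfd2* or *Gdf15* holds these letters in the searched window. Over all promoters of the table, 3.97% of 32851 hold the element, and 4.51% of 27025 gene symbols have such a promoter.

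Values are log2 expression, the logarithm of the background-subtracted spot intensity after quantile normalisation over the 12 arrays. Each probe has its own brightness, so values are compared between hearts for 1 probe and never between probes. Spots well above background numbered 23556 to 29231 of 59305 per array, and 0 were saturated. The untreated groups C and D shared 1 slide and scan and both pargyline groups another, so slide and pargyline cannot be told apart when treated and untreated mice are compared, whereas a shift common to all arrays of a slide cancels in the comparisons of diabetic with control mice. Diabetic and control mice lay in different rows of each slide, and the effects of row and diabetes cannot be told apart. C + P replicate 1, D replicate 1 and D + P replicate 1 lay in the same slide column and had the widest spread between repeated spots, with a median coefficient of variation of 22.3%, 35.3% and 25.7% against 6.03% to 19.1% on the other arrays. They are called the column 1 arrays here, and values without them are given for each of the 9 tested genes. The labels give each array as a separate mouse, so the replicate spread includes differences between animals. All 6 listed markers of ventricular cardiomyocytes were well above background on 12 of 12 arrays, as were all 3 each of fibroblasts, endothelial cells, macrophages and red cells, whereas all 3 liver markers were well above background on 0 of 12. In whole heart tissue, fewer cells of a type and less RNA per cell cannot be told apart.

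**Figure D1:**
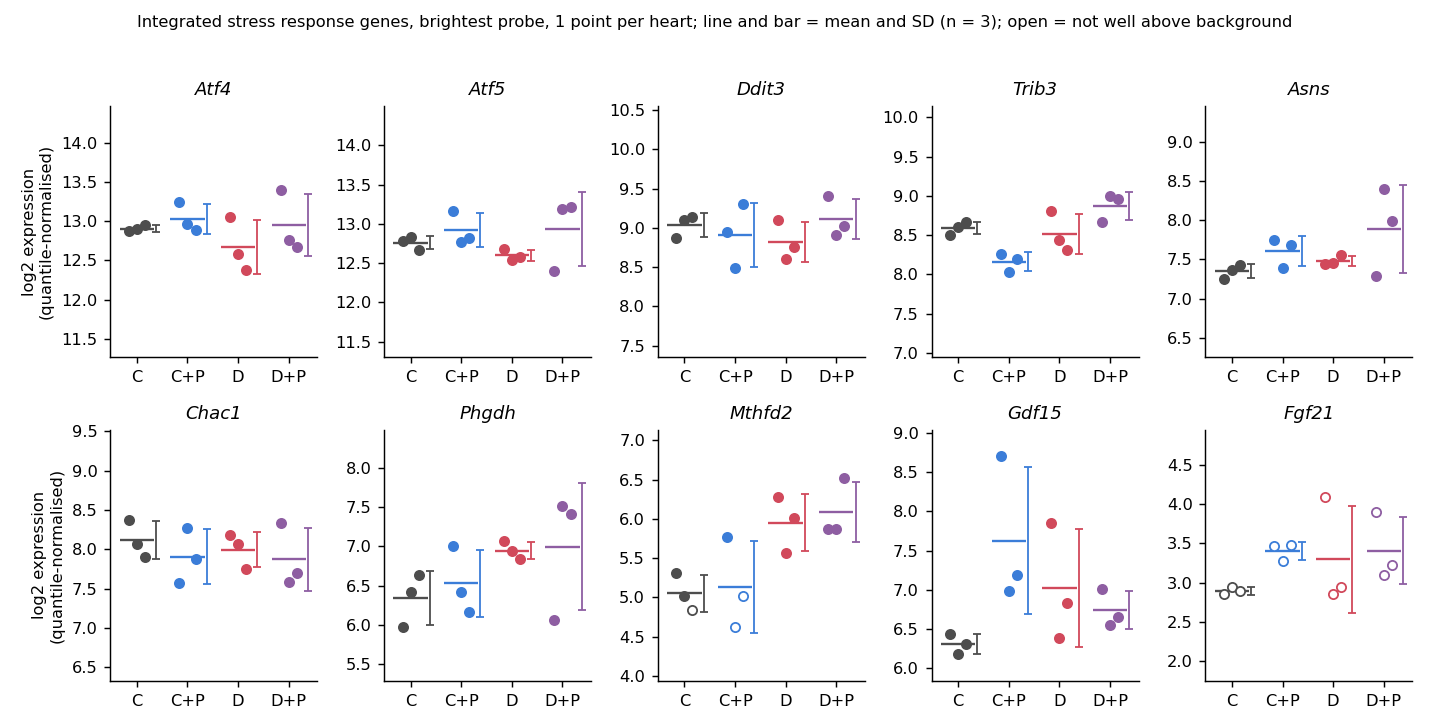
Log2 expression (y axis, quantile-normalised) of the brightest probe of each of the 10 genes in every heart, by group (x axis); lines are group means, bars SD (n = 3), and open points were not well above background. *Mthfd2* lies higher in both diabetic groups, *Gdf15* is highest in C + P replicate 1 at 8.70, and all 12 *Fgf21* values are open points between 2.85 and 4.09.

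No gene of the list passed an adjusted p of 0.05 in any comparison. Each gene was represented by its brightest tested probe, the fit was made with limma over all 12 arrays, and p-values were adjusted by Benjamini-Hochberg over 30857 probes. With arrays weighted by quality 1 gene passed, *Mthfd2* in diabetes averaged over pargyline. Between untreated diabetic and control mice (D against C), 0 of 9 genes passed, where 0.00648% of all tested probes did, and 1 of 9 had an unadjusted p under 0.05, where 10.8% of all probes did. Between the pargyline groups (D + P against C + P), 0 of 9 passed beside 0.0454% of all probes, and 2 of 9 had an unadjusted p under 0.05 beside 7.46%. With diabetes averaged over both pairs, 0 of 9 passed beside 0.107%, and 2 of 9 had an unadjusted p under 0.05 beside 11.4%. For pargyline in control mice (C + P against C) the counts were 0 of 9 beside 0.0324% and 2 of 9 beside 4.43%. For pargyline in diabetic mice (D + P against D) the counts were 0 of 9 beside 0% and 0 of 9 beside 13.3%. The interaction, which is the diabetic difference with pargyline minus that without it, gave 0 of 9 beside 0.00648% and 2 of 9 beside 7.03%. The median log2 difference of the 9 genes in averaged diabetes was -0.01, beside -0.01 for all tested probes, with values from -0.16 for *Atf4* to 0.93 for *Mthfd2*. It was -0.07 between D and C and 0.20 between D + P and C + P, beside -0.01 and 0.01. For pargyline the median was 0.12 in control mice, with 6 of 9 genes above 0, and 0.27 in diabetic mice, with 7 of 9 above 0, beside -0.01 and -0.00, and in the interaction it was 0.15, beside -0.00.

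Without the column 1 arrays 0 of 9 genes passed in each comparison, and the counts at an unadjusted p under 0.05 were higher or equal. They were 3 of 9 between D and C (beside 18.6% of all probes), 6 of 9 between D + P and C + P (beside 12.1%) and 5 of 9 in averaged diabetes (beside 20.9%). Pargyline gave 2 of 9 in control mice (beside 7.71%) and 4 of 9 in diabetic mice (beside 18.7%), the latter *Atf5*, *Trib3*, *Asns* and *Phgdh*, all with positive differences, and the interaction gave 3 of 9 (beside 9.49%). Group C has no array in column 1, and with slide column as a block the gene at an unadjusted p under 0.05 between D and C was *Atf4*, lower (1 of 9, beside 8.05%), in place of *Mthfd2*. With that block there were 3 of 9 between D + P and C + P (*Trib3*, *Mthfd2* and *Gdf15*, beside 6.48%). There was 1 in averaged diabetes (*Mthfd2*, beside 9.85%) and 1 between C + P and C (*Gdf15*, beside 3.83%). Between D + P and D there were 0 of 9, beside 3379 of all 30857 probes. The interaction with that block gave 2 of 9 (*Trib3* and *Gdf15*, beside 4.84%).

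The arrays of D and C did not overlap for 3 of 9 genes, where this was so for 22.3% of all probes, and those of D + P and C + P for 2 of 9, beside 13.9%. All of these lay higher in the diabetic hearts. The arrays of C + P and C did not overlap for 2 of 9 genes, beside 15.3%, with 1 higher and 1 lower, and those of D + P and D for 0 of 9, beside 17.0%.

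**Figure D2:**
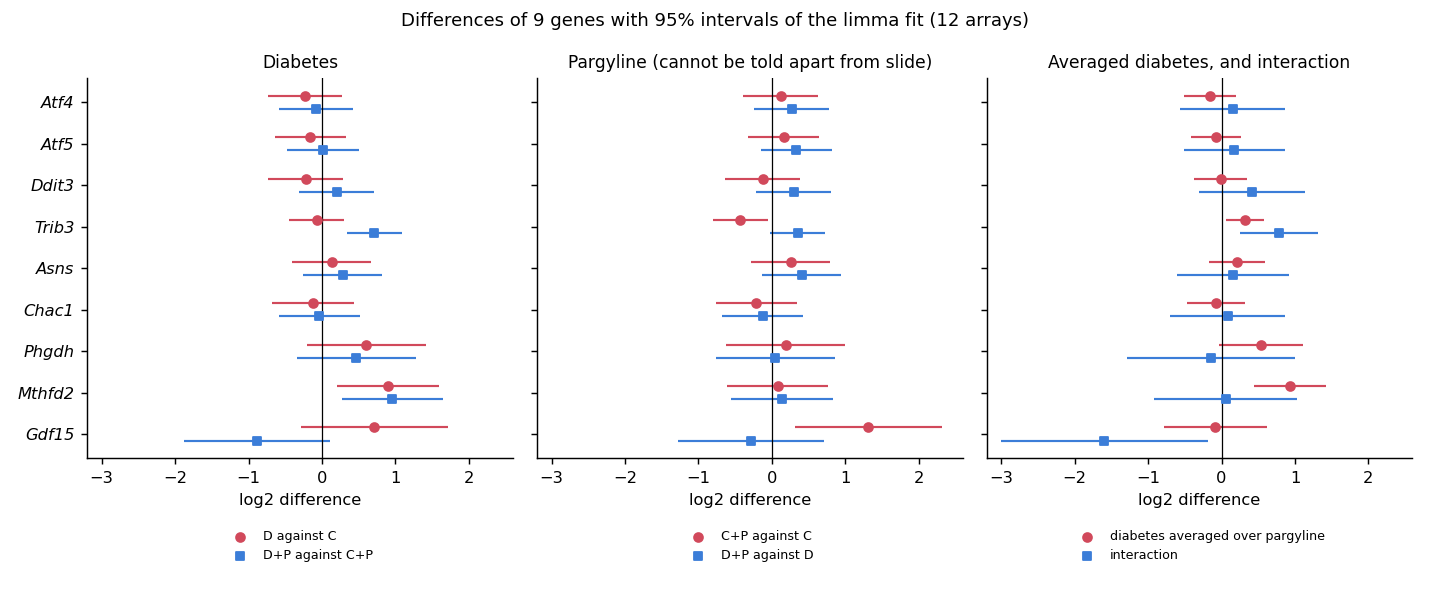
Log2 differences (x axis) of the 9 tested genes (y axis) with 95% intervals from the limma fit of 12 arrays, for diabetes without and with pargyline, for pargyline in control and diabetic mice, and for averaged diabetes and the interaction. Both diabetic differences of *Mthfd2* lie near 0.90 to 0.96, *Trib3* and *Gdf15* differ most between the diabetic comparisons, and most other intervals cross 0.

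*Mthfd2*, a mitochondrial enzyme of folate metabolism that is low in most adult tissues, had the largest difference of the 9 genes in averaged diabetes. Its brighter probe, at chr6:83256518-83256577 on the minus strand in mm9, read 5.31, 5.01 and 4.84 in C and 5.76, 4.62 and 5.01 in C + P. It read 6.29, 5.56 and 6.01 in D and 5.87, 5.87 and 6.52 in D + P. Every diabetic heart without pargyline lay above every untreated control, and every D + P heart lay above every C + P heart. The signal was dim, well above background in 2 of 3 C, 1 of 3 C + P, 3 of 3 D and 3 of 3 D + P hearts. Without pargyline the mean was 5.05 ± 0.24 (SD, n = 3) in C and 5.95 ± 0.36 in D, and with it the mean was 5.13 ± 0.58 in C + P and 6.09 ± 0.38 in D + P.

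*Mthfd2* was higher by 0.90 (SE 0.31) on the log2 scale in D than in C, which is 1.87-fold, with a limma p of 0.0155 and an adjusted p of 0.376. It was higher by 0.96 (SE 0.31) in D + P than in C + P, with a limma p of 0.0112 and an adjusted p of 0.522. The averaged *Mthfd2* difference was 0.93 (SE 0.22, 95% interval 0.44 to 1.42), with a limma p of 0.0016 and an adjusted p of 0.174, which put its probe at rank 284 of 30857. Between the 2 pairs the difference moved by 0.06 (95% interval -0.92 to 1.03), and by 0.65 (SE 0.39) without the column 1 arrays. Pargyline itself gave 0.08 (95% interval -0.61 to 0.77) in controls and 0.14 (95% interval -0.55 to 0.83) in diabetic mice. With arrays weighted by their quality the *Mthfd2* average was 0.98 and passed, with an adjusted limma p of 0.0348, and with the normexp background correction, which adds an offset and compresses dim signals, it was 0.37 with an adjusted limma p of 0.271. Without the column 1 arrays it was 1.06, with an adjusted limma p of 0.0762. With slide column as a block *Mthfd2* differed between D and C by 0.79, with a limma p of 0.0572, and on average by 0.88, with a limma p of 0.00863 and an adjusted p of 0.393.

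The other *Mthfd2* probe, at chr6:83255861-83255920, was well above background on 3 of 12 arrays. It read 4.98, 3.95 and 3.88 in C, 4.15, 4.39 and 4.70 in C + P, 4.89, 4.06 and 5.57 in D, and 4.44, 5.44 and 6.43 in D + P. These groups overlapped. Its averaged difference was 0.80 (SE 0.37), with a limma p of 0.0524 and an adjusted p of 0.445, and the probes of *Mthfd2* had a Pearson r of 0.68 over the 12 arrays, which is a description of arrays that share their noise.

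*Phgdh*, the first enzyme of serine synthesis from glucose-derived carbon, read 5.97, 6.42 and 6.63 in C and 7.06, 6.94 and 6.84 in D. With pargyline it read 7.00, 6.42 and 6.17 in control mice and 6.07, 7.51 and 7.41 in diabetic mice. The D hearts lay above all C hearts and were close together, while among D + P hearts the column 1 array was below every C + P heart and the other hearts were above them. *Phgdh* was higher by 0.60 (SE 0.37) in D than in C, with an adjusted limma p of 0.55, and by 0.47 (SE 0.37) in D + P than in C + P, with an adjusted limma p of 0.802. The averaged difference was 0.54 (95% interval -0.04 to 1.11, adjusted limma p 0.471). When the column 1 arrays were left out the *Phgdh* average was 0.86 with an adjusted limma p of 0.0712, and D + P lay above C + P by 1.17 (SE 0.23) with a limma p of 0.00116 and an adjusted p of 0.151. The average was 0.35 with normexp.

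*Asns*, which makes asparagine from aspartate and is among the best known ATF4 targets, holds the element 23 bases before its start. Its brighter probe read 7.25, 7.37 and 7.43 in C and 7.44, 7.45 and 7.55 in D, which just did not overlap and differed by 0.13 (95% interval -0.41 to 0.67, adjusted limma p 0.864). It read 7.75, 7.39 and 7.69 in C + P and 7.29, 8.39 and 7.99 in D + P. The D + P group held both the highest and nearly the lowest *Asns* values, with an SD of 0.56 against 0.06 in D. The averaged difference was 0.21 (95% interval -0.18 to 0.59, adjusted limma p 0.681), and 0.40 without the column 1 arrays (adjusted limma p 0.15). The other *Asns* probe crosses a splice junction and was well above background on 0 of 12 arrays, so its values are not described further. It is shown with the probe of *Ddit3* that also crosses a junction and the dimmer probe of *Atf4*, in lower case and 5′ to 3′. Each sequence is the stretch that a reading stands for.
*Asns*, chr6:7626110-7626255, minus strand, mm9: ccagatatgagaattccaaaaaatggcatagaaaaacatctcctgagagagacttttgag
*Ddit3*, chr10:126732518-126732821, plus strand, mm9: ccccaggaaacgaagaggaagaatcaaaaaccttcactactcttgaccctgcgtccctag
*Atf4*, chr15:80087079-80087138, plus strand, mm9: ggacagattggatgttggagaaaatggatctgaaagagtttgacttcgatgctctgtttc
The *Asns* probe has 60 bases and spans 146 on the genome, and the *Ddit3* probe has 60 and spans 304. The files do not give the exon or untranslated region in which a probe lies.

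*Trib3*, a pseudokinase that binds ATF4 and AKT and dampens both, had the largest positive interaction of the 9 genes. Its probe, at chr2:152163161-152163220 on the minus strand in mm9, read 8.51, 8.60 and 8.66 in C and 8.80, 8.44 and 8.31 in D. It read 8.26, 8.03 and 8.19 in C + P and 8.67, 8.995 and 8.96 in D + P. C and D overlapped, every C + P heart lay below every C heart, and every D + P heart lay above every C + P heart. The order of the group means ran from C + P at 8.16 ± 0.12 (SD, n = 3) through D at 8.52 ± 0.26 and C at 8.59 ± 0.08 to D + P at 8.87 ± 0.18.

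*Trib3* was higher by 0.71 (SE 0.17, 95% interval 0.34 to 1.08) in D + P than in C + P, which is 1.64-fold, with a limma p of 0.00157, an adjusted p of 0.282 and rank 170 of 30857. D and C differed by -0.07 (95% interval -0.44 to 0.30, adjusted limma p 0.898). The interaction was 0.78 (SE 0.24, 95% interval 0.25 to 1.31), with a limma p of 0.00773 and an adjusted p of 0.64. C + P lay below C by -0.43 (SE 0.17), with a limma p of 0.0286 and an adjusted p of 1.00, and D + P above D by 0.35 (SE 0.17), with an adjusted limma p of 0.392. In averaged diabetes *Trib3* gave 0.32 (SE 0.12), with a limma p of 0.0219 and an adjusted p of 0.365. Without the column 1 arrays the interaction of *Trib3* was 1.08 with an adjusted limma p of 0.362, and D + P lay above D by 0.60 with an adjusted limma p of 0.118. With normexp the interaction was 0.53 with a limma p of 0.125, and the difference of C + P from C was -0.24 with a limma p of 0.313. With slide column as a block the limma p of *Trib3* was 0.0594 between C + P and C and 0.0726 in averaged diabetes.

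*Chac1*, which degrades glutathione and is induced by ATF4, also holds the element. It read 8.38, 8.06 and 7.90 in C, 7.57, 8.27 and 7.87 in C + P, 8.18, 8.06 and 7.74 in D, and 8.33, 7.58 and 7.70 in D + P. The groups overlapped in all 4 pairwise comparisons. The averaged difference was -0.08 (95% interval -0.47 to 0.32, adjusted limma p 0.894), and over the 6 comparisons the differences ran from -0.21 to 0.09. D + P replicate 1, a column 1 array, was the highest of its group, and with the column 1 arrays left out the *Chac1* average was -0.32 (SE 0.15, limma p 0.0665, adjusted p 0.268), D + P differed from C + P by -0.43 (SE 0.22) and the interaction turned to -0.22 (SE 0.30).

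*Atf4* encodes the transcription factor at the centre of the response. Its brightest probe, at chr15:80087902-80087961, read 12.87, 12.90 and 12.95 in C, 13.24, 12.96 and 12.88 in C + P, 13.05, 12.58 and 12.38 in D, and 13.40, 12.76 and 12.67 in D + P. Within C + P, D and D + P the column 1 array was the highest. The averaged *Atf4* difference was -0.16 (95% interval -0.52 to 0.20, adjusted limma p 0.745), and -0.31 without the column 1 arrays, with a limma p of 0.00983 and an adjusted p of 0.136. The dimmer *Atf4* probe printed above ran from 7.68 to 8.50 over the 12 arrays and was lowest on the C + P column 1 array. Its averaged difference was 0.08 (95% interval -0.26 to 0.42), and the Pearson r between the *Atf4* probes over the 12 arrays was -0.53. The probes of this gene thus did not give 1 pattern, and neither gave a difference that passed.

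*Atf5*, a related factor that serves the mitochondrial unfolded protein response, ran from 12.66 to 12.83 in C, 12.77 to 13.16 in C + P, 12.54 to 12.68 in D and 12.40 to 13.22 in D + P with its brighter probe. The averaged difference was -0.07 (95% interval -0.42 to 0.27, adjusted limma p 0.886). It turned to 0.10 (SE 0.08) without the column 1 arrays, where *Atf5* was higher by 0.65 (SE 0.13) in D + P than in D, with a limma p of 0.00117 and an adjusted p of 0.109. The other *Atf5* probe read 12.12, 12.23 and 12.00 in C + P and 12.42, 12.51 and 12.68 in D + P, which did not overlap. That difference was 0.42 (SE 0.17), with a limma p of 0.0328 and an adjusted p of 0.633, where the brighter probe gave 0.02 (SE 0.22). The *Atf5* probes gave 0.48 (SE 0.21) and 0.41 (SE 0.13) without the column 1 arrays, so that their gap in this comparison rests on those arrays. The Pearson r between the *Atf5* probes over the 12 arrays was 0.36.

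*Ddit3* encodes CHOP, a factor linked to cell death when the response persists. Its brightest probe, annotated only to an Ensembl transcript, ran from 8.87 to 9.14 in C, 8.49 to 9.30 in C + P, 8.60 to 9.09 in D and 8.91 to 9.40 in D + P. The averaged difference was -0.01 (95% interval -0.37 to 0.35, adjusted limma p 0.989), and -0.14 (SE 0.18) without the column 1 arrays. The junction probe printed above, which carries the RefSeq accession of *Ddit3*, gave 0.08 (95% interval -0.19 to 0.34, adjusted limma p 0.835) and lay between 7.37 and 7.87 on all 12 arrays. All groups overlapped with both *Ddit3* probes.

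*Gdf15*, a secreted cytokine that reports cellular stress to the brain and lowers appetite, had the largest difference of the list between pargyline-treated and untreated controls. Its probe, at chr8:73153293-73153352 on the minus strand in mm9, read 6.44, 6.18 and 6.30 in C and 8.70, 6.98 and 7.19 in C + P. It read 7.85, 6.38 and 6.84 in D and 7.01, 6.55 and 6.66 in D + P. All C + P hearts lay above all C hearts, and in each of C + P, D and D + P the column 1 array was the highest. The SD was 0.13 in C against 0.94 in C + P, and 0.75 in D against 0.24 in D + P (n = 3 each).

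*Gdf15* was higher by 1.32 (SE 0.45) in C + P than in C, which is 2.49-fold, with a limma p of 0.0145 and an adjusted p of 1.00. It differed by 0.71 (SE 0.45, adjusted limma p 0.56) between D and C and by -0.88 (SE 0.45, adjusted limma p 0.692) between D + P and C + P. The interaction was -1.60 (SE 0.64, 95% interval -3.01 to -0.19), with a limma p of 0.03 and an adjusted p of 0.695. The averaged *Gdf15* difference was -0.08 (95% interval -0.79 to 0.62). Without the column 1 arrays *Gdf15* was higher by 0.78 in C + P than in C, with a limma p of 0.0025 and an adjusted p of 0.446, by 0.30 in D than in C, and differed by -0.48 between D + P and C + P, and the interaction was -0.78 with a limma p of 0.0172 and an adjusted p of 0.45. The part of the wide spread of repeated spots on those arrays in the *Gdf15* differences was not tested, and the slide of the pargyline groups cannot be told apart from the treatment.

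*Fgf21*, a hormone released by liver and by stressed muscle, holds the element 139 bases before its start, but 0 of 12 arrays read its probe well above background. It read 2.85, 2.95 and 2.89 in C, 3.47, 3.27 and 3.48 in C + P, 4.09, 2.86 and 2.94 in D, and 3.90, 3.101 and 3.22 in D + P. These readings lie at the background of the array, with the higher ones on the D and D + P column 1 arrays, and no fold is given.

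Among 72 further genes of the pathway, grouped by role, 66 had a probe that passed the filter, and 0 of 66 passed an adjusted p of 0.05 in any of the 6 comparisons. An unadjusted p under 0.05 was found for 12 of 66 in averaged diabetes (18.2%, 6 higher and 6 lower, beside 11.4% of all probes). The diabetic comparison gave 7 of 66 without pargyline (10.6%, beside 10.8%) and 6 with it (9.09%, beside 7.46%). Pargyline gave 4 in control mice (6.06%, beside 4.43%) and 5 in diabetic mice (7.58%, beside 13.3%), and the interaction gave 6 (9.09%, beside 7.03%). Without the column 1 arrays the count in averaged diabetes was 16 of 66 (24.2%, 11 higher, beside 20.9%). Between D + P and C + P it was 12 of 66 (18.2%, 7 higher, beside 12.1%), and between D and C 8 (12.1%, beside 18.6%). Pargyline gave 4 in control mice (6.06%, beside 7.71%) and 8 in diabetic mice (12.1%, beside 18.7%). The interaction gave 4 (6.06%, beside 9.49%), and 0 passed in each comparison. The median difference of the 66 genes in averaged diabetes was 0.02.

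**Figure D3:**
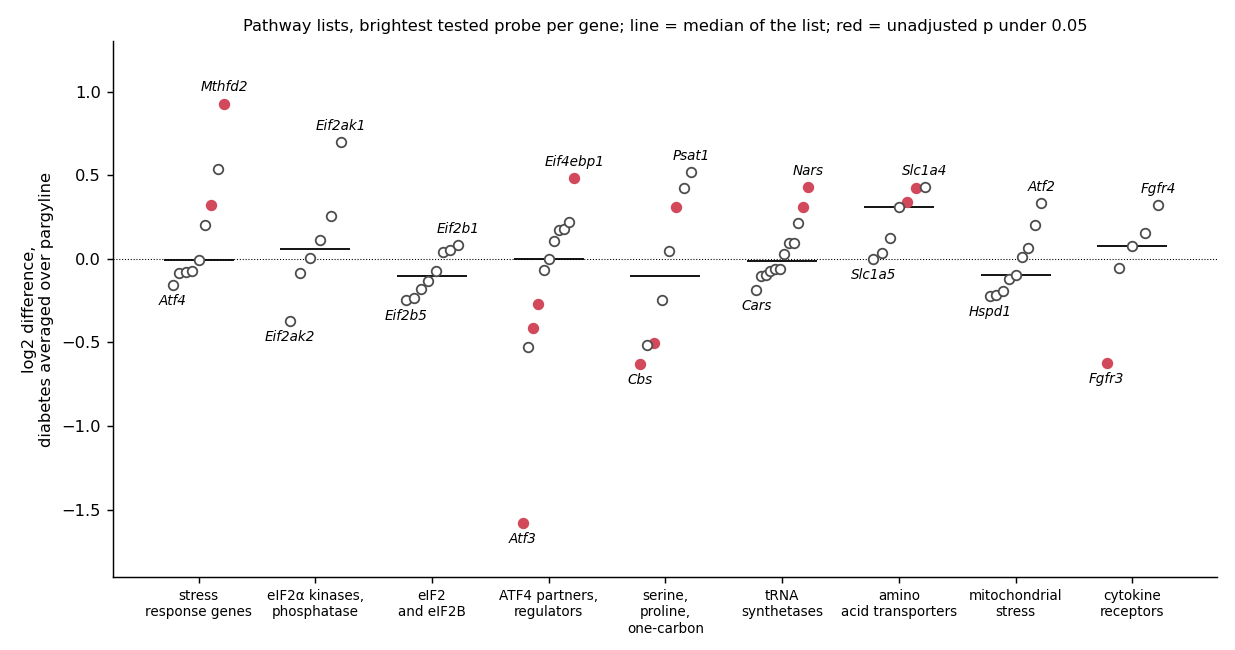
Log2 difference in averaged diabetes (y axis) of the brightest tested probe of each gene, by list (x axis), with the median of each list as a line and the highest and lowest gene of each list named. Points run from -1.58 for *Atf3* to 0.93 for *Mthfd2*, red points had an unadjusted p under 0.05, and none passed after adjustment.

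No gene of the sensors, the translation machinery or the mitochondrial relay had an unadjusted p under 0.05 in averaged diabetes, beside 11.4% of all probes. Of the 6 genes for eIF2α kinases and subunits of its phosphatase, 0 passed even unadjusted, and the list ran from -0.37 for *Eif2ak2*, which encodes the kinase that senses double-stranded RNA, to 0.70 (SE 0.59) for *Eif2ak1*, which encodes the kinase that senses haem shortage and relays mitochondrial stress. The value of *Eif2ak1* rests on C + P replicate 1, which read 3.05 where the others of its group read 6.41 and 7.02, and without that array the average was 0.09. The 8 genes of eIF2 and its exchange factor eIF2B ran from -0.25 for *Eif2b5* to 0.08 for *Eif2b1*, and without D + P replicate 3 the value of *Eif2b5* was 0.03 and without C + P replicate 3 that of *Eif2b1* was -0.02. The 9 genes of mitochondrial proteases, chaperones and stress relay ran from -0.22 for *Hspd1* to 0.33 for *Atf2*, and without D replicate 1 these were -0.05 and 0.21, while without all column 1 arrays *Hspd1* turned to 0.07. Genes of these lists at an unadjusted p under 0.05 between D and C, named after their values were seen, were *Eif2ak2*, *Ppp1r15b* and *Oma1*. Of all probes, 10.8% had such a p in that comparison. *Eif2ak2* differed by -0.62 (SE 0.25, adjusted limma p 0.435), or -0.38 without C replicate 3, and *Ppp1r15b*, which encodes the constitutive phosphatase subunit, by 0.58 (SE 0.19, adjusted limma p 0.358). *Oma1*, a mitochondrial protease that starts the relay to the cytosol, read 8.67, 8.97 and 9.27 in C, 9.10, 8.82 and 9.04 in C + P, 9.82, 9.33 and 9.33 in D, and 8.86, 8.82 and 8.94 in D + P. The D hearts lay above all others for *Oma1*. It differed by 0.52 (SE 0.19, adjusted limma p 0.403) between D and C and by -0.62 (SE 0.19, adjusted limma p 0.242) between D + P and D, and by 0.36 and -0.45 when the column 1 arrays were left out.

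The lists of enzymes and carriers that ATF4 is known to induce are given beside 11.4% of all probes at an unadjusted p under 0.05 in averaged diabetes. Of 8 tested genes of serine, proline, folate and related amino acid metabolism, 1 was higher and 2 were lower at that threshold. The list ran from -0.63 for *Cbs*, a dim probe well above background on 2 of 12 arrays, to 0.52 (SE 0.25) for *Psat1*. *Psat1*, an enzyme of serine synthesis downstream of PHGDH, did not itself meet that threshold. *Cbs* gave -0.40 and *Psat1* 0.84 without the column 1 arrays, with an adjusted limma p of 0.0594 for *Psat1*. Of 12 aminoacyl-tRNA synthetase genes, 2 were higher and 0 lower, from -0.19 for *Cars* (-0.11 without D replicate 2) to 0.43 (SE 0.19) for *Nars*, with a list median of -0.01. Of 7 tested amino acid transporter genes, 2 were higher and 0 lower, and 6 of 7 had a positive difference. The list ran from -0.00 for *Slc1a5* to 0.43 (SE 0.20) for *Slc1a4*, which did not itself meet that threshold, with a list median of 0.31. *Slc6a9*, a glycine transporter gene picked out after its values were seen, had the smallest adjusted p of the 66 genes in 3 comparisons. It read 8.28, 8.37 and 8.19 in C, 7.73, 7.93 and 8.22 in C + P, 7.94, 8.27 and 8.02 in D, and 8.90, 8.79 and 8.83 in D + P, where every heart lay above all others. *Slc6a9* was higher by 0.88 (SE 0.16) in D + P than in C + P, with an adjusted limma p of 0.16, and by 0.76 (SE 0.16) than in D, with an adjusted limma p of 0.163. Its interaction was 1.09 (SE 0.23), with an adjusted limma p of 0.565. Among the 5 tested receptors of GDF15 and FGF21 the range was -0.62 (SE 0.21) for *Fgfr3* to 0.32 (SE 0.42) for *Fgfr4*, which gave -0.02 without C + P replicate 1. *Gfral* and *Klb*, the receptor of GDF15 and the co-receptor of FGF21, were well above background on 0 of 12 arrays.

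Of 11 tested partners and regulators of ATF4, 1 was higher and 3 were lower at an unadjusted p under 0.05 in averaged diabetes, beside 11.4% of all probes. *Cebpg*, picked out after its values were seen, had the smallest adjusted p of the 66 genes between D and C. It read 9.51, 9.49 and 9.49 in C and 8.75, 9.17 and 9.03 in D. That difference was -0.51 (SE 0.16), with a limma p of 0.00986 and an adjusted p of 0.345. With pargyline *Cebpg* read 9.37, 9.57 and 9.76 in control mice and 9.64, 9.58 and 9.38 in diabetic mice. *Eif4ebp1*, an ATF4 target whose product restrains translation, was higher by 0.48 (SE 0.12) in averaged diabetes, with a limma p of 0.00265 and an adjusted p of 0.203. It read 11.81, 11.82 and 11.65 in C + P and 12.24, 12.41 and 12.66 in D + P, which did not overlap. C and D overlapped for *Eif4ebp1*, with 12.32, 11.88 and 11.90 in C and 12.26, 12.48 and 12.23 in D. They differed by 0.29 (SE 0.18, adjusted limma p 0.551). *Atf3*, an early stress-induced factor, was lower by -1.58 (SE 0.56) in averaged diabetes, with a limma p of 0.0173 and an adjusted p of 0.347. *Atf3* read 5.27, 5.36 and 5.42 in C, 8.93, 7.19 and 6.88 in C + P, 2.98, 5.96 and 4.86 in D, and 5.30, 4.06 and 6.42 in D + P, and its probe was well above background on 8 of the 12. All C + P hearts lay above every other heart for *Atf3*, and the difference from C was 2.32 (SE 0.79), with a limma p of 0.0142 and an adjusted p of 1.00. The *Atf3* average without the column 1 arrays was -0.87 (adjusted limma p 0.331), the difference of D from C turned from -0.75 to 0.06, and that of C + P from C was 1.69. *Ppp1r15a*, which encodes the stress-induced phosphatase subunit that ends the response and was picked out after its values were seen, read 10.33, 10.42 and 10.07 in C + P and 9.73, 9.62 and 9.81 in C, a difference of 0.55 (SE 0.14), with a limma p of 0.00251 and an adjusted p of 0.712. *Ppp1r15a* differed by 0.01 between D + P and D, by 0.19 between D and C and by -0.36 between D + P and C + P. Its interaction was -0.55. Of the 66 genes, 14 did not overlap between C + P and C, 8 higher and 6 lower in C + P, beside 15.3% of all probes. There were 12 of 66 between D and C (6 higher, 6 lower, beside 22.3%), 15 between D + P and C + P (7 higher, 8 lower, beside 13.9%) and 9 between D + P and D (3 higher, 6 lower, beside 17.0%).

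Across the 12 hearts the 9 tested genes were related to each other in both directions. The Pearson r of the 36 pairs, given as a description of 12 arrays that share 4 groups and 3 noisy column 1 arrays, ran from -0.82 to 0.78 with a median of 0.13. The highest were 0.78 between *Atf5* and *Asns* and 0.76 between *Asns* and *Phgdh*, and the lowest were -0.82 between *Asns* and *Chac1* and -0.72 between *Chac1* and *Phgdh*. D + P replicate 1, a column 1 array, had the lowest D + P value of *Atf5*, *Asns* and *Phgdh* and the highest of *Chac1*. *Atf4* itself had r values from -0.37 with *Phgdh* and -0.27 with *Asns* to 0.50 with *Gdf15* and 0.53 with *Ddit3*.

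The genes whose pattern over the 12 arrays was most like that of a listed gene were outside the pathway lists. For *Trib3* these were *Gstt1* (Pearson r 0.96), *Gm19277* (0.90) and *Nek8* (0.89). For *Gdf15* they were *Jmjd6* (0.95), *Gm10461* (0.94) and *Bap1* (0.92), and for *Chac1* *Mt2* (0.92), *Gm28777* (0.90) and *Tmem35a* (0.90). For *Phgdh* they were *2900089D17Rik* (0.91), *Efnb3* (0.90) and *Ecel1* (0.87). For *Atf4* they were *Ano6* (0.95), *Fcsk* (0.94) and *Trim41* (0.93), for *Atf5* *Gm11959* (0.89), *Vangl1* (0.88) and *Snx11* (0.88), and for *Ddit3* *Gli1* (0.90), *Kif21b* (0.87) and *Tprkb* (0.87). These r values are the highest among all tested probes with a symbol, over 12 arrays, and no test is attached to them. The probes of *Gm10461* and *Gm28777* were well above background on 2 arrays each, that of *2900089D17Rik* on 3 and that of *Gm11959* on 4, so that most of their readings lie near background.

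**Figure D4:**
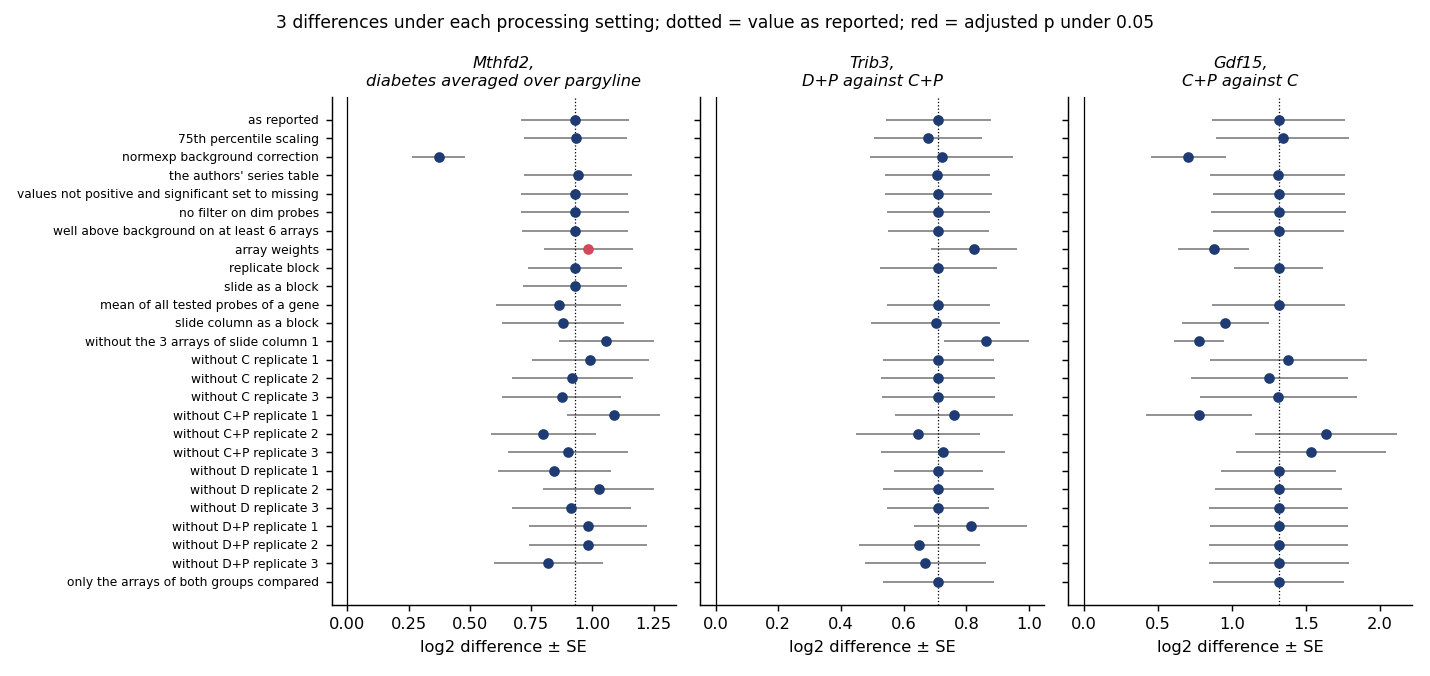
Log2 difference with its SE (x axis) under each processing setting (y axis) for *Mthfd2* in averaged diabetes, *Trib3* in D + P against C + P and *Gdf15* in C + P against C; the dotted line is the value as reported and red marks an adjusted p under 0.05. *Mthfd2* ran from 0.37 to 1.09 and was red only with array weights, *Trib3* from 0.65 to 0.86, and *Gdf15* from 0.71 to 1.64.

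Markers of other cell types were read beside these genes. The summed macrophage markers on the log2 scale lay between 11.81 and 12.26 in C, 11.82 and 12.33 in C + P, 11.54 and 11.92 in D, and 11.53 and 11.90 in D + P, and the ranges of D and C overlapped. Group ranges did not overlap for the summed fibroblast markers of D + P (15.21 to 15.55) and C + P (15.09 to 15.21), where the lowest D + P heart was only just above the highest C + P heart and *Dcn*, the brightest of the 3, makes up most of the sum, nor for the summed endothelial markers of D + P (13.22 to 13.58) and D (12.62 to 13.09). The fibroblast marker *Col1a1* had the opposite order, with a mean of 10.28 in D + P and 10.54 in C + P. Of the endothelial markers *Kdr* moved most, with a mean of 12.21 in D and 12.96 in D + P. The means were 11.17 and 11.31 for *Cdh5* and 8.06 and 8.14 for *Pecam1*. Among all single probes, 13.9% did not overlap between D + P and C + P and 17.0% between D + P and D. All 3 markers of each of these 3 cell types were detected well above background on every one of the 12 arrays. The summed red cell markers lay between 16.79 and 17.32 in all 12 hearts. Among 4 adipocyte markers 0 were well above background on all arrays, and *Adipoq* was so on 0 of 12. Their part in the values of the stress response genes was not tested.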

How the data were processed

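The authors labelled total RNA with Cy3 and extracted the spots with Feature Extraction, for which the file headers name version 12.0.0.7 and the methods of the study another. The deposited scanner files give background-subtracted intensity on a linear scale. The deposited series table gives intensity quantile normalised by the authors and was used as an alternative. Control spots were left out, outlier spots set to missing (0.23%), repeated spots averaged, and the log2 signal quantile normalised between arrays. Readings below the software's positive and significant call, 2.04% of those tested, were kept, where the authors set them to missing. Accessions were matched to RefSeq names of GRCm38.p6 (20772 of 30857 tested probes). Coordinates of probes come from the files (build mm9).

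All 12 arrays were fitted with limma 3.58.1 in R 4.3.3 (with the package data.table, version 1.17.8), with 1 mean per group, 8 residual and 2.62 prior degrees of freedom and two-sided tests. Intervals use the sum of both. The brightest tested probe, by its mean over 12 arrays, stands for a gene. Within pathway lists, genes past the threshold were to be named, otherwise the highest and lowest in averaged diabetes; for likeness, the 3 probes of other genes with the highest Pearson r, for genes well above background on 12 arrays (those of *Asns* are not reported here). The genes and lists were chosen with earlier results of these data known. The fit was tested on simulated data. Alternatives were other scalings, background corrections, filters, weights, blocks, the methods' t-test and leaving out each array. Sequences were read with pandas 2.3.3 and numpy 2.4.6 in Python 3.11.15, and plots drawn in matplotlib 3.10.9.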

Additional observations from a re-analysis of the deposited data

How the results depend on the processing

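The number of the 9 tested genes that passed an adjusted p of 0.05 was 0 in all 6 comparisons and stayed 0 under 26 of 27 alternatives in each comparison they were run on; the slide block was run for averaged diabetes alone, and the methods' t-test and the fits of only the arrays compared for the 4 pairwise comparisons. With array weights it was 1 in diabetes averaged over pargyline, and the gene was *Mthfd2*; over all probes that setting called 279 in D against C, 348 in averaged diabetes and 206 in C + P against C, beside 2, 33 and 10. The methods' t-test, at an unadjusted threshold of 0.05, gave 2 of 9 in D against C (*Phgdh* and *Mthfd2*, higher, beside 11.4% of all probes), 1 with pargyline in the same comparison (*Trib3*, higher, beside 6.55%), 1 in C + P against C (*Trib3*, lower, beside 7.69%) and 0 between the diabetic groups (beside 8.34%), and 0 after Benjamini-Hochberg or Bonferroni adjustment. Leaving out each array gave counts from 0 to 0. With the replicate block the count was 0 in each comparison. Same-numbered arrays of different groups correlated between -0.20 and 0.20, with 4 of 18 pairs over 0.1, and other pairs between -0.19 and 0.21. Such correlations cannot show whether arrays are separate mice, which is taken from the labels. Of 1359 values of single genes under the alternatives, 32 moved by over 1 within-group SD and 77, of differences that were not called, changed sign. The settings without the column 1 arrays and with slide column as a block were chosen after seeing the data. Depth in the sense of signal over background limits *Mthfd2* and *Fgf21*, and 3 arrays per group limit all comparisons.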
